A study of Mus musculus with 13 samples.

Results

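The calcium/calmodulin-dependent protein kinases (CaM kinases) were examined on expression arrays of 1 brain hemisphere from each of 13 male mice. Genes were chosen by symbol: 10 CaM kinase genes were listed, and every probe set whose single annotated symbol was one of them was taken. Of these 10 genes 9 had a probe set, 30 probe sets in all, out of 18193 genes with a probe set of 1 symbol. Camkk1 had no probe set under its own symbol and is not analysed here. The 6 creatine-fed mice received pellets with 1% creatine for 6 months. The 7 untreated mice received pellets of equal energy without it, also for 6 months. Both groups were males of the inbred strain C3HeB/FeJ, 10 to 12 weeks old at the start. No genetic change is named in the labels.

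When calcium enters a neuron it binds calmodulin, and calcium-loaded calmodulin switches on these kinases. The CaM kinase kinases (Camkk1 and Camkk2) phosphorylate and so fully activate the CaMKI and CaMKIV enzymes, and Camkk2 also phosphorylates the energy sensor AMPK. CaMKII, built from alpha, beta, gamma and delta subunits, forms large holoenzymes that can keep themselves active by autophosphorylation and is central to long-term potentiation at excitatory synapses. CaMKIV acts largely in the nucleus, where it phosphorylates the transcription factor Creb1.

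Each array gave 1 intensity per probe set on a linear scale, and the median over probe sets lay between 37 and 45 on all arrays. Intensities of different probe sets are not comparable as levels, so each was compared only with itself across mice. Differences are log2(intensity + 16) in creatine-fed minus untreated mice, tested with limma over all 45037 probe sets, and a mean called higher or lower without an intensity beside it is the mean on that log2 scale. Precision is limited by how few arrays there are. Markers fixed by tissue or cell type had no zero on any array. The 7 measured markers of forebrain excitatory neurons, the 7 of astrocytes and the 7 of oligodendrocytes each had a mean above the highest array median. So did all measured markers of striatal projection neurons (6), cerebellum (8) and interneurons (5). Only 4 of 7 thalamus and brainstem, 4 of 6 hippocampus, 4 of 6 microglia and 1 of 5 red blood cell markers did. In a whole hemisphere, fewer cells of a type and less RNA per cell cannot be told apart. The summed intensity of 8 cerebellum markers ran from 3653 to 10535 in creatine-fed mice and from 1056 to 13845 in untreated mice. Untreated replicate 3 and creatine-fed replicate 4 were the lowest of all.

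No CaM kinase probe set passed at an adjusted p under 0.05, and in none did the groups separate. Over all probe sets 0.00888% passed and 0.56% had groups that did not overlap. At an unadjusted p under 0.05, 6 of the 30 probe sets (20%) were higher in creatine-fed mice and 0 were lower, where 4.17% of all probe sets were higher and 7.7% lower. The 6 belong to Camk1d (2), Camk4 (2), Camk2a (1) and Camkk2 (1). The exact permutation test of each probe set gave 7 higher and 0 lower, where it gave 4.36% higher and 7.59% lower over all probe sets. Means were higher at 21 of the 30 (70%), against 42.2% of all probe sets. The median log2 difference was 0.13 over the 30 and -0.03 over all probe sets. Taking only the brightest probe set of each gene, 1 of 9 genes (Camk1d) was higher at an unadjusted p under 0.05, against 3.58% of all genes, and 0 were lower, against 7.61%. Means there were higher in 5 of 9 genes, against 41.5% of all genes, and groups did not overlap in 0 of 9, against 0.649%.

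The count moved with the arrays and settings used. Without creatine-fed replicate 4, 11 of the 30 were higher and 0 lower (4.9% and 6.9% of all probe sets). Without creatine-fed replicate 1, 5 were higher and 1, Camk1d 1438643_at, was lower (3.86% and 7.71%). Without both arrays lowest in cerebellum markers, 12 were higher and 0 lower (4.58% and 6.81% of all probe sets). With every array centred on its own median, 12 were higher and 0 lower, where 7.07% of all probe sets were higher and 4% lower. After quantile normalization 6 were higher and 0 lower (5.42% and 5.73%). With the mean of the oligodendrocyte markers as a covariate, 2 were higher and 2 lower (2.96% and 5.28%). Those markers had 6 of 7 means lower in creatine-fed mice, where 41.5% of all genes had a higher mean. Their sums ran from 16726 to 18876 in creatine-fed and from 18238 to 22730 in untreated mice. Their mean on the log2 scale, the covariate, ran from 10.066 to 10.226 in creatine-fed and from 10.224 to 10.497 in untreated mice. It nearly followed the groups, so this fit cannot tell the markers apart from the feeding. The part of these markers in the differences below was not tested.

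**Figure D1:**
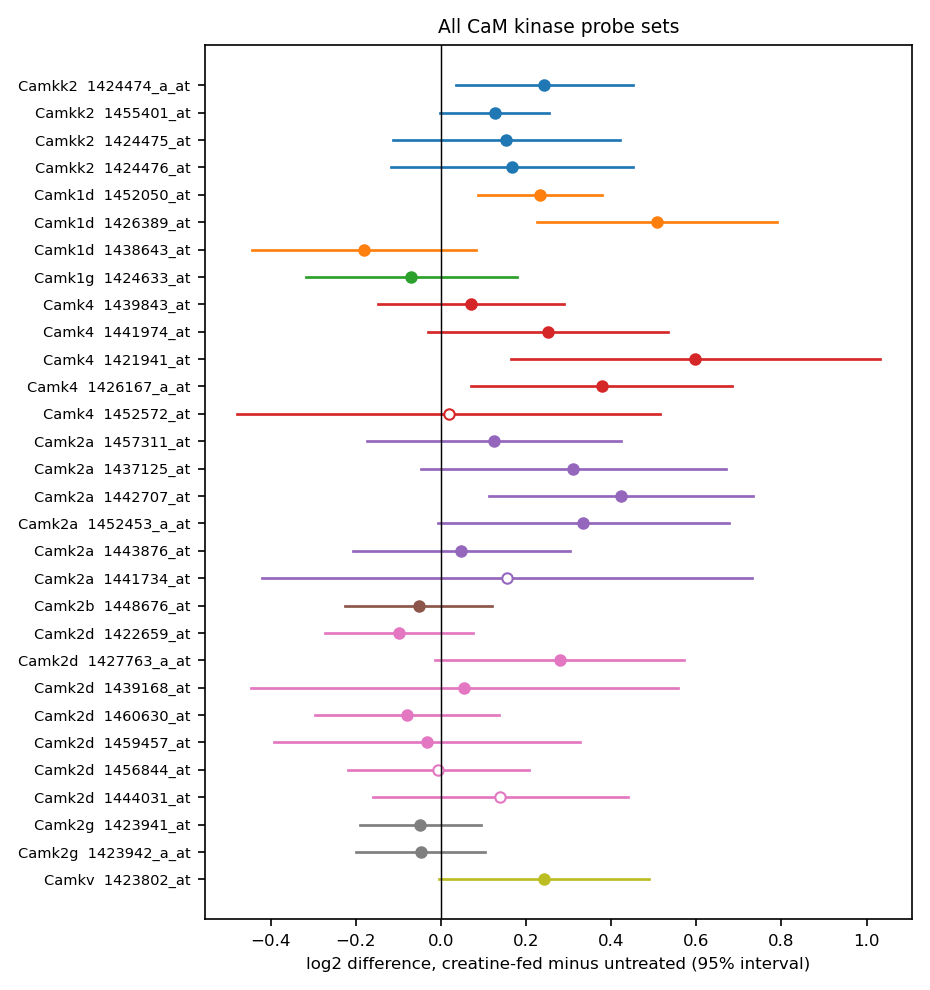
Log2 difference of intensity (creatine-fed minus untreated, x axis) for all 30 probe sets of 9 CaM kinase genes (y axis), with 95% intervals from limma for 6 and 7 mice; open circles mark probe sets whose mean lay below the lowest array median in both groups. The intervals of 6 probe sets, of Camkk2, Camk1d, Camk4 and Camk2a, lie above 0, and none lies below it.

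Camkk2 encodes a CaM kinase kinase that also activates AMPK. Its brightest probe set, 1455401_at, read 676 to 784 (median 709.5) in creatine-fed mice, against 618 to 694 (median 651) in untreated mice. The ranges overlapped narrowly, and 4 of the 6 creatine-fed mice lay above every untreated mouse. The log2 difference was 0.13 ± 0.06 (SE, limma adjusted p = 0.434). Probe set 1424474_a_at read 556 to 866 (median 753.5) in creatine-fed mice, against 545 to 669 (median 628) in untreated mice. Here 5 creatine-fed mice lay above every untreated one, and creatine-fed replicate 4, at 556, was the exception (log2 difference 0.24 ± 0.10, adjusted p = 0.347). The remaining probe sets, 1424475_at and 1424476_at, differed by 0.15 ± 0.12 and 0.17 ± 0.13 (SE). With 1 mouse left out, the difference at 1424475_at ran from 0.09 (without creatine-fed replicate 1) to 0.26 (without creatine-fed replicate 4). That at 1424476_at ran from 0.08 (without creatine-fed replicate 6) to 0.26 (without creatine-fed replicate 2). All 4 probe sets thus had higher means in creatine-fed mice without passing the test.

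Camk1d and Camk1g encode CaMKI enzymes, which act downstream of the CaM kinase kinases. Camk1d had the smallest p of the family. At 1426389_at it read 173 to 282 (median 260.5) in creatine-fed mice, against 127 to 220 (median 158) in untreated mice. All creatine-fed mice except replicate 4, at 173, lay above the highest untreated mouse. The log2 difference was 0.51 ± 0.13 (limma adjusted p = 0.186, exact permutation p = 0.00758), a fold of 1.42 on that scale. At 1452050_at, its brightest, it read 528 to 637 (median 608) in creatine-fed mice, against 461 to 529 (median 504) in untreated mice. The groups met only at their edges, creatine-fed replicate 2 at 528 lying just under untreated replicate 1 at 529. The log2 difference was 0.23 ± 0.07 (limma adjusted p = 0.225, exact permutation p = 0.00117). At both probe sets 6 of 6 creatine-fed mice exceeded the untreated mean. The third, 1438643_at, went the other way, at 74 to 129 (median 94.5) in creatine-fed mice against 88 to 136 (median 116) in untreated mice (log2 difference -0.18 ± 0.12, adjusted p = 0.597). With the thalamus and brainstem markers as a covariate, the difference at 1452050_at was 0.15 and that at 1426389_at 0.77 (adjusted p = 0.0576). Means of 7 of 7 such markers were lower in creatine-fed mice, where 41.5% of all genes had a higher mean. Their sums ran from 1199 to 1456 in creatine-fed mice and from 1373 to 1780 in untreated mice. Among them Tph2, Slc6a4 and Hoxb5 were dim, with mean intensities of 13.5, 9.5 and 13.5 in creatine-fed mice. In untreated mice these were 35, 33 and 32.4. The mean of the thalamus and brainstem markers on the log2 scale, the covariate, ran from 6.158 to 6.698 in creatine-fed mice. In untreated mice it ran from 6.259 to 7.286. It partly followed the groups, so this fit cannot fully tell the markers apart from the feeding. Camk1g had 1 probe set, at 216 to 345 (median 296.5) in creatine-fed mice against 262 to 354 (median 292) in untreated mice. Its groups lay within each other's spread, with a log2 difference of -0.07 and a 95% interval from -0.32 to 0.18.

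The promoters of Camk1d and Camkk2 are shown because these are the genes, among those with a promoter window used here, that had a probe set at an unadjusted p under 0.05. They are RefSeq starts on GRCm38.p6, 250 bases before to 50 after the start, each read on the minus strand of the genome. Capitals mark GC boxes (GGGCGG, either strand), a motif bound by Sp1-type factors.
Camk1d, chr2:5714713-5715012: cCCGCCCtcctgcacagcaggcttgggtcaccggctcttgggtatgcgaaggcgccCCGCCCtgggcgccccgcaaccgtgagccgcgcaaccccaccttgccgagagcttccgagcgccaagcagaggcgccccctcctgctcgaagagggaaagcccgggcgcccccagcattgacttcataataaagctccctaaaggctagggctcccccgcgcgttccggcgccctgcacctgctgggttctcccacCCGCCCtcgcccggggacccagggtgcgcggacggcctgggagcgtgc
Camk1d, second start, chr2:5675997-5676296: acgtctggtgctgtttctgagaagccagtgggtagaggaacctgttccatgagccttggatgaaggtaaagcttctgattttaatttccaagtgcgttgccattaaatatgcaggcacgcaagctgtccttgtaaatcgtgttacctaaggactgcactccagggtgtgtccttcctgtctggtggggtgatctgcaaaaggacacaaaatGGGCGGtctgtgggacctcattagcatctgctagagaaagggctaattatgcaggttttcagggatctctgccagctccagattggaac
Camkk2, chr5:122779361-122779660: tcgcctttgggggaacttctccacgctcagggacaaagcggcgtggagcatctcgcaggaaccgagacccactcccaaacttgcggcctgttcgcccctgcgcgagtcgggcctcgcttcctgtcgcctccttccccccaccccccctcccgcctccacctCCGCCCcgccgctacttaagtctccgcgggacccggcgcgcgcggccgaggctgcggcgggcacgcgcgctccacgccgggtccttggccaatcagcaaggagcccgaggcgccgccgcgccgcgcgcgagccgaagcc
The first Camk1d window held 3 GC boxes at 71.3% G and C, the second held 1 at 48.7%, and the Camkk2 window held 1 at 73.3%. Windows on 1 chromosome were left out of the search, and none for Camk4 or Camk2a was among those used. Of the 32851 promoter windows of this length that were used, 35.7% held at least 1 GC box. The core of the Creb1 binding motif (TGACG, either strand, present in 20.8% of windows) was searched as well, since Creb1 is a nuclear target of CaM kinases, and was in none of these 3 windows. Matches and their absence describe letters only.

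Camk4 encodes CaMKIV, which is abundant in cerebellar granule cells and in cortical neurons. The log2 differences of its 5 probe sets were all above 0, although the mean intensity of the dim 1452572_at was 18.2 in creatine-fed mice and 18.9 in untreated mice. The brightest, 1439843_at, read 1351 to 1618 (median 1507.5) in creatine-fed mice, against 1068 to 1763 (median 1425) in untreated mice. Every creatine-fed mouse lay within the untreated range, and the log2 difference was 0.07 with a 95% interval from -0.15 to 0.29. The dimmer 1421941_at read 56 to 150 (median 90) in creatine-fed mice, against 43 to 86 (median 51) in untreated mice. Creatine-fed mice read 56, 57 and 69 or 111, 126 and 150, and the untreated mouse at 86 was replicate 2. The log2 difference of 0.60 ± 0.20 (adjusted p = 0.271) was the largest of the family. Probe set 1426167_a_at read 53 to 126 (median 83.5) in creatine-fed mice, against 50 to 80 (median 60) in untreated mice (0.38 ± 0.14, adjusted p = 0.322). The high creatine-fed mouse at 126 was replicate 5, and the low one at 53 was replicate 4. The remaining probe sets, 1441974_at and the dim 1452572_at, differed by 0.25 and 0.02, and 1452572_at turned to -0.02 with the cerebellum markers as a covariate.

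Camk2a encodes the alpha subunit of CaMKII, the main form in excitatory neurons of the forebrain. All 6 of its probe sets had higher means in creatine-fed mice. Its brightest, 1457311_at, read 1983 to 3571 (median 2639) in creatine-fed mice, against 1972 to 2754 (median 2430) in untreated mice. Creatine-fed mice spread on both sides of the untreated mean, 3 above and 3 below, and the SD was 671 in creatine-fed mice and 265 in untreated mice. The log2 difference was 0.12 ± 0.14 (adjusted p = 0.776). At 1442707_at it read 601 to 1269 (median 752) in creatine-fed mice, against 513 to 682 (median 571) in untreated mice. The top value, 1269, was creatine-fed replicate 6, and 4 of the 6 lay above every untreated mouse. The log2 difference was 0.42 ± 0.14 (adjusted p = 0.277), and it was 0.29 without creatine-fed replicate 6. Differences at 1437125_at and 1452453_a_at were 0.31 and 0.33, each with 5 of 6 creatine-fed mice above the untreated mean, and that at 1452453_a_at was 0.21 without creatine-fed replicate 6. Differences at 1443876_at and the dim 1441734_at were 0.05 and 0.16, and 1443876_at turned to -0.12 with the oligodendrocyte covariate. The forebrain excitatory neuron markers had 7 of 7 means higher in creatine-fed mice, 0 at an unadjusted p under 0.05 (limma). Of all genes, 41.5% had a higher mean. Sums of these markers ran from 2589 to 3735 in creatine-fed and from 2332 to 2858 in untreated mice. The highest sum was that of creatine-fed replicate 6. The part of these markers in the Camk2a differences was not tested.

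Camk2b encodes the beta subunit, which binds actin in dendritic spines, and read 1260 to 1610 (median 1422.5) in creatine-fed mice, against 1236 to 1598 (median 1531) in untreated mice. The ranges coincided almost fully (log2 difference -0.05, 95% interval -0.22 to 0.12). Camk2g, the gamma subunit, read 1344 to 1642 (median 1447) in creatine-fed mice, against 1388 to 1631 (median 1528) in untreated mice at 1423941_at. Its difference was -0.05 there (95% interval -0.19 to 0.09) and also -0.05 at 1423942_a_at, and these turned to 0.0035 and 0.0046 on centring each array. Camk2d, the delta subunit best known from heart muscle, read 328 to 391 (median 360) in creatine-fed mice, against 314 to 442 (median 393) in untreated mice at its brightest probe set, 1422659_at. The creatine-fed range lay inside the untreated one (log2 difference -0.10, 95% interval -0.27 to 0.08). At 1427763_a_at Camk2d differed by 0.28 (adjusted p = 0.447), 4 of the 6 creatine-fed mice lying above all untreated ones and replicate 4, at 214, below all of them. The 5 dimmer probe sets of Camk2d differed by -0.08 to 0.14.

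Camkv encodes a synaptic protein of the family that binds calmodulin but lacks kinase activity. It read 1249 to 1630 (median 1430.5) in creatine-fed mice, against 997 to 1698 (median 1159) in untreated mice. Its 6 creatine-fed mice were above the mean of untreated mice but below untreated replicate 3, at 1698, the array lowest in cerebellum markers. The log2 difference was 0.24 ± 0.12 (adjusted p = 0.435), and it was 0.33 (adjusted p = 0.241) without that mouse. With the cerebellum markers as a covariate it was 0.27 (adjusted p = 0.155), and with the thalamus and brainstem markers -0.0046 (adjusted p = 0.993). The thalamus and brainstem covariate partly followed the groups, so that fit cannot fully tell these markers apart from the feeding. Their part in the Camkv difference was not tested.

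**Figure D2:**
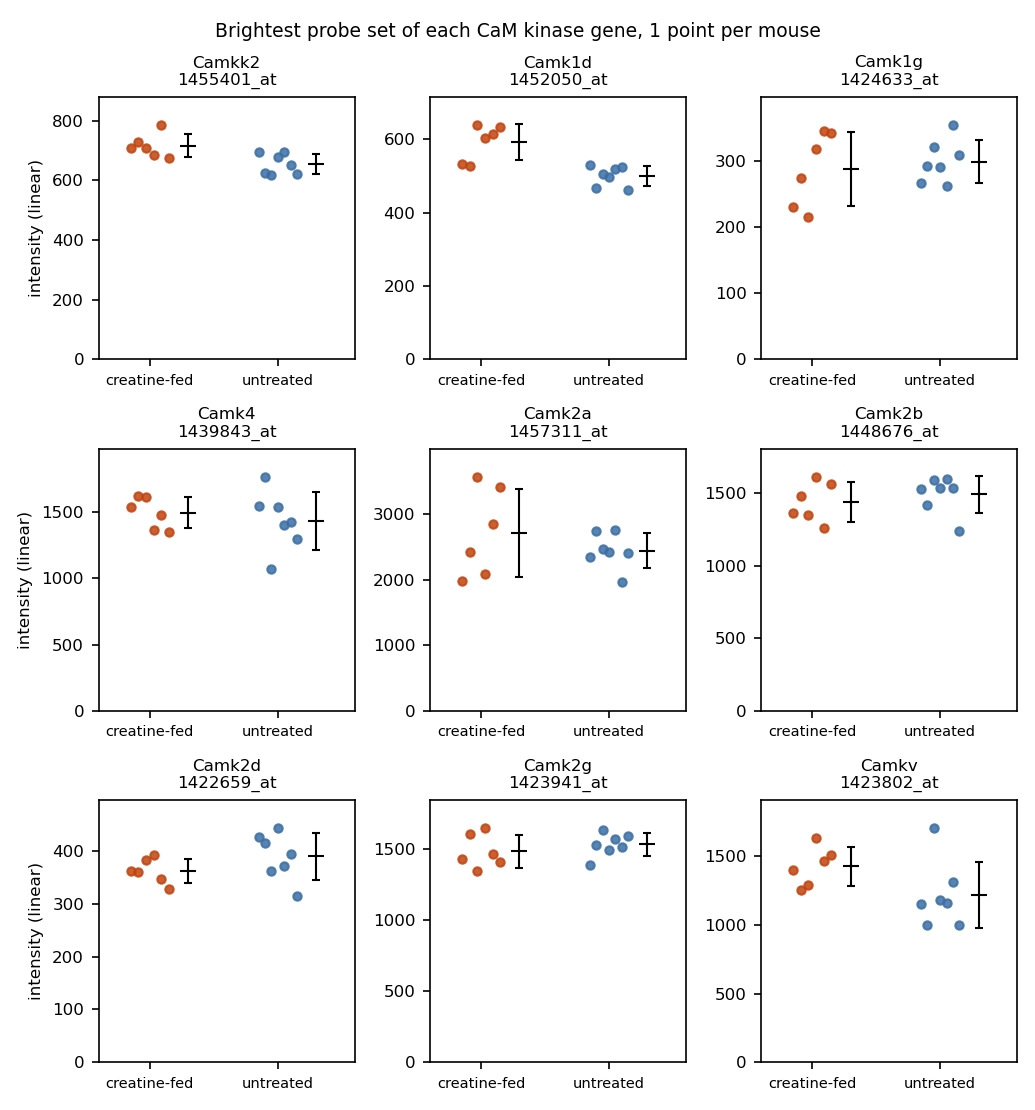
Intensity (linear, from 0) of the brightest probe set of each of 9 CaM kinase genes in 6 creatine-fed and 7 untreated mice, 1 point per mouse, with the group mean and SD as a bar beside the points. Groups overlap in all 9 panels, most narrowly for Camk1d, where 1 creatine-fed mouse at 528 lies under the highest untreated mouse at 529 and another at 532 just above it.

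**Figure D3:**
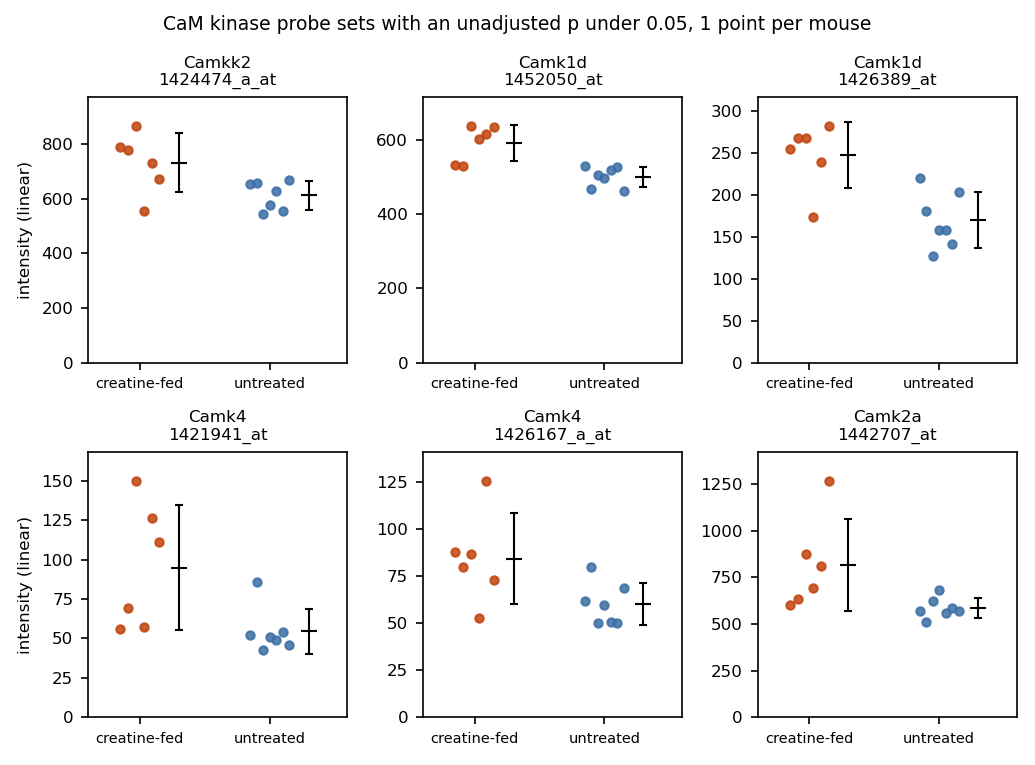
Intensity (linear, from 0) of the 6 CaM kinase probe sets with an unadjusted p under 0.05, chosen by that p, in 6 creatine-fed and 7 untreated mice, with the group mean and SD beside the points. The groups overlap in every panel.

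Whether the probe sets of 1 gene differed unequally was asked by subtracting, on each array, the log2 value of the gene's brightest probe set from that of each further one. For 6 CaM kinase genes this gave 21 contrasts, of which 0 passed at an adjusted p under 0.05. Limma called 0 of 16752 such contrasts over all genes (0%), with 1995 at an unadjusted p under 0.05. Of the 21, 4 were higher and 1 was lower in creatine-fed mice at an unadjusted p under 0.05, against 6.18% and 5.73% of all contrasts. The 4 were Camk4 at 1421941_at (0.53 ± 0.19) and 1426167_a_at (0.31), Camk2d at 1427763_a_at (0.38) and Camk2a at 1442707_at (0.30). The 1 lower was Camk1d at 1438643_at (-0.41 ± 0.15, adjusted p = 0.313). Across the 13 mice, deviations from the group means of the further probe sets were set against those of the brightest. Pearson's r ran from -0.68 for Camk2a 1441734_at to 0.75 for Camk4 1441974_at, and none of the 21 relations passed by Pearson's r or Spearman's rho (smallest permutation p adjusted over the 21, 0.125 and 0.323).

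Mice also differed from each other within each group, in step with regional markers. Camk4 at its brightest probe set was higher in mice with more cerebellum marker signal. Pearson's r of the deviations from the group means was 0.87 (permutation p = 3e-04, adjusted over 90 relations 0.009) and Spearman's rho was 0.80 (p = 0.00116, adjusted 0.0261). Camkv ran the other way, with r of -0.91 (permutation p = 4e-05, adjusted 0.00315) and rho of -0.81 (p = 0.00105, adjusted 0.0261). Without untreated replicate 3 and creatine-fed replicate 4, the arrays farthest from the median, r was 0.78 for Camk4 and -0.75 for Camkv. These mice were at 1068 for Camk4 and 1698 for Camkv (untreated replicate 3) and at 1366 and 1630 (creatine-fed replicate 4). With the cerebellum markers as a covariate, the difference between creatine-fed and untreated mice at the brightest Camk4 probe set was 0.04 (adjusted p = 0.827).

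**Figure D4:**
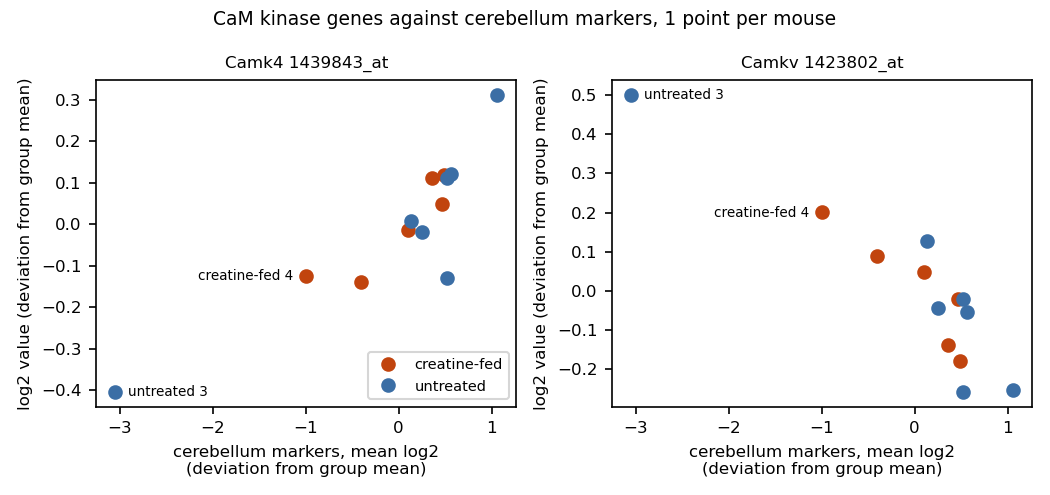
Deviation from the group mean of the log2 value of Camk4 and Camkv (y axis) against that of the mean of 8 cerebellum markers (x axis, log2), 1 point per mouse for 6 creatine-fed and 7 untreated mice. Camk4 lies higher (r = 0.87) and Camkv lower (r = -0.91) in mice with more cerebellum marker signal, and untreated replicate 3 lies far to the left.

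The 90 relations set the brightest probe set of each of the 9 genes against each of 10 marker lists. By both coefficients 3 more passed after adjustment. Camk4 was lower in mice with more striatal marker signal (r = -0.79, rho = -0.80, permutation p = 0.00278 and 0.00164, adjusted 0.04 and 0.0295), with r of -0.63 without the 2 arrays farthest from the median. Camkv and Camk2b were lower in mice with more astrocyte marker signal. For Camkv r was -0.89 and rho -0.85 (permutation p = 7e-05 and 0.00113, adjusted 0.00315 and 0.0261), and for Camk2b r was -0.79 and rho -0.86 (p = 0.00162 and 0.00027, adjusted 0.0365 and 0.0243). Without the 2 farthest arrays r was -0.80 for Camkv and -0.77 for Camk2b. By r alone, Camk1g was higher with more hippocampal marker signal (r = 0.76, permutation p = 0.00305, adjusted 0.04; rho = 0.76, p = 0.00779, adjusted 0.1). Likewise by r alone, Camkv was lower with more thalamus and brainstem signal (r = -0.81, permutation p = 0.00311, adjusted 0.04; rho = -0.73, p = 0.0102, adjusted 0.114), with r of -0.57 without the 2 farthest arrays. All lists were read on the same arrays, so these relations are not independent. Among the 36 pairs of CaM kinase genes none passed after adjustment. The widest, Camk4 with Camkv, had r of -0.77 and rho of -0.55 (permutation p = 0.0119 and 0.0713, adjusted 0.43 and 0.439).

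Genes whose within-group deviations over the 13 mice were most like those of a CaM kinase were ranked among 11139 genes brighter than the median probe set, as a description. For Camk2a at its brightest probe set these were Eef1e1 (Pearson's r 0.87), Atg4c (0.86) and Sephs2 (0.84). For Camk1d they were N4bp3 (0.89), Mia3 (0.89) and Pcnx3 (0.88). With so many genes ranked over 13 mice that share their arrays, values of this size carry no test.

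The wider pathway was followed in 50 listed genes, 44 of which had a probe set with 1 symbol, each read at its brightest. None passed at an adjusted p under 0.05, where 0.0055% of the brightest probe sets of all genes did. At an unadjusted p under 0.05, 3 were higher and 0 lower, against 3.58% and 7.61% of all genes. Means were higher in 27 and lower in 17, and the median log2 difference was 0.03, against -0.03 over all genes.

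Nuclear targets of CaM kinases held 2 of the 3 genes. Mef2c, a transcription factor released when CaM kinases act on class IIa histone deacetylases, averaged 2315 ± 88.7 in creatine-fed mice and 1894 ± 221 in untreated mice at its brightest probe set (SD, log2 difference 0.30, adjusted p = 0.201). Creb1 averaged 512 ± 32.1 in creatine-fed mice and 432 ± 40.6 in untreated mice (SD, 0.24, adjusted p = 0.244), and 1 of its 6 probe sets had a lower mean. Both were above the untreated mean in 6 of 6 creatine-fed mice. Means of 7 of the 9 nuclear targets were higher, among them the histone deacetylases Hdac5 (0.16) and Hdac4 (0.09), though 2 of the 3 probe sets of Hdac4 had a lower mean. The third gene, Akap5, an anchor of kinases and calcineurin at synapses, averaged 242 ± 12.0 in creatine-fed mice and 213 ± 23.5 in untreated mice (SD, 0.18, adjusted p = 0.383), and 1 of its 3 probe sets had a lower mean. Among CaMKII substrates, the synaptic vesicle protein Syn1 and the exchange factor Kalrn each differed by 0.14. The AMPA receptor subunit Gria1 and the NMDA receptor subunit Grin2b differed by -0.01 and 0.03.

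Genes that restrain CaM kinases had lower means at the brightest probe set in all 4 measured, with log2 differences from -0.10 to -0.02. Of all genes, 41.5% had a higher mean there, and none of the 4 had an unadjusted p under 0.05. Camk2n1 and Ppm1f each had 1 other probe set with a higher mean. Camk2n1 and Camk2n2, natural inhibitors of CaMKII, differed by -0.02 and -0.08, and the phosphatases Ppm1f and Ppm1e by -0.10 and -0.04. The kinases Camk1 and Pnck, of the CaMKI group, differed by -0.11 and -0.07. All 3 calmodulin-binding buffers had slightly higher means, Nrgn of forebrain dendrites by 0.10, Gap43 of growing axons by 0.08 and Pcp4 by 0.01. Of the calcineurin list, which opposes the kinases as a calcium-driven phosphatase, 3 of 7 were higher. Ppp3cc differed by -0.20 (adjusted p = 0.423), Rcan2 by -0.10 (adjusted p = 0.593) and Ppp3r1 by 0.09. The calcium channels Cacna1c and Cacna1d differed by 0.01 and 0.02. Of the kinases activated by CaM kinase kinases, the AMPK subunits Prkaa2 and Prkaa1 differed by 0.08 and -0.06 and Akt1 by 0.06. Among 8 related kinases 6 had higher means, while Dclk2, a doublecortin-like kinase, differed by -0.18 (adjusted p = 0.472) and Pskh1 by -0.23 (adjusted p = 0.599).

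**Figure D5:**
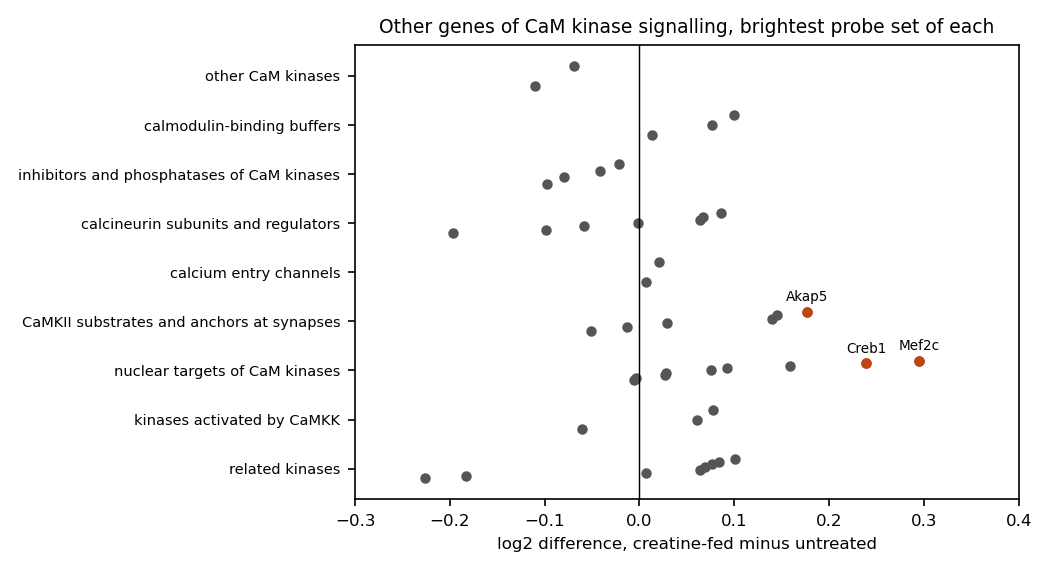
Log2 difference of intensity (creatine-fed minus untreated, x axis) at the brightest probe set of 44 other genes of CaM kinase signalling, 1 point per gene, grouped by role (y axis). The 3 named points, Akap5, Creb1 and Mef2c, had an unadjusted p under 0.05, and none passed after adjustment.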

How the data were processed

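Biotin-labelled RNA of 13 mice was hybridised to 1 array each, per the labels. Intensities deposited by the authors are whole numbers with zeros on a linear scale, and the mean after trimming 2% at each end was 150.05 on every array. That is the form of a global scaling, while the submitters' processing notes name RMA, which returns log2 values; the scaling tool is not given in the sources used here. An offset of 16 was added before log2, and 64 control probe sets were set aside. Symbols came from the probe table supplied for the platform, updated through Entrez IDs. All 45037 probe sets were fitted with limma 3.58.1 (lmFit, eBayes) in R 4.3.3, 2-sided, without covariates, with Benjamini-Hochberg adjustment over all of them. Probe set contrasts were fitted the same way. Exact permutation used all 1716 divisions of 13 mice into 6 and 7. Correlations used 100000 permutations within groups and were chosen after the data were seen. The fit was also run on simulated data with planted changes and independent noise at each probe set, and the outcome is not given here.

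The named genes are all members at every probe set, with values by group for each gene's brightest probe set and for those at an unadjusted p under 0.05. From the pathway lists they are genes at an unadjusted p under 0.05 plus up to 2 per list with the smallest p. Grin2b, Gria1, Camk2n1, Ppm1e, Pcp4, Ppp3r1 and Akt1 were added after their values were seen. Members and lists were chosen with earlier results of these data known. The series' design text calls the arrays of each group biological replicates. Other offsets, normalizations, filters, eBayes settings, array weights, marker and RNA-quality covariates, the replicate block and leaving out single mice were tried; leaving out both arrays lowest in cerebellum markers was added after the data were seen. Figures were drawn with matplotlib 3.10.9.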

Additional observations from a re-analysis of the deposited data

Results flagged for a closer look

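In 6 of 60 groups of values (30 CaM kinase probe sets in 2 groups each) 1 mouse lay far from the others of its group on the log2 scale, where chance gives about 1 in 20 groups. The share of such groups over all probe sets is not given here. All probe sets were read on the same arrays, so the flags are not independent. Creatine-fed replicate 4 was that mouse in 4 of the 6. It read 173 at Camk1d 1426389_at, where the other creatine-fed mice read 239 to 282. It read 214 at Camk2d 1427763_a_at, against 327 to 388 in the others, and 4 at Camk4 1452572_at, a dim probe set, against 18 to 24. At Camk2g 1423942_a_at it was the high one, at 1420 against 1072 to 1185. Untreated replicate 2 was high at Camk4 1421941_at, reading 86 against 43 to 54 in the other untreated mice, and at Camk2d 1439168_at, reading 164 against 69 to 100. Of all 13 arrays, creatine-fed replicate 4 was the second lowest in summed cerebellum markers (3653) and untreated replicate 2 the highest (13845); the part of this in the values was not tested.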

How the results depend on the processing

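No CaM kinase probe set passed under any setting run, and none of the 13 fits that left out 1 mouse called one. The smallest adjusted p, 0.0514, came with eBayes set to trend and robust, at Camk1d 1426389_at. The count at an unadjusted p under 0.05, 6 as reported, was 10 with an offset of 50 (all higher; over all probe sets 4.72% higher and 8.1% lower), 12 after centring each array on its median (all higher; 7.07% and 4%), 11 with trend and robust (all higher; 4.74% and 7.88%) and 12 without the 2 arrays lowest in cerebellum markers (all higher; 4.58% and 6.81%). It was 4 with the oligodendrocyte covariate, 2 higher and 2 lower (2.96% and 5.28%). It ran from 6 to 11 with 1 mouse left out, and only without creatine-fed replicate 1 did it hold a lower one (5 higher, 1 lower). The cause was not tested. Trend and robust, which called 161 of 45037 probe sets against 4 as reported, also called 1 pathway gene, Mef2c (0.30, adjusted p = 0.0368), and the thalamus and brainstem covariate called 1 contrast, Camk1d 1426389_at against its brightest probe set (0.62, adjusted p = 0.0475).

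Replicate numbers are shared by the groups, but deviations of same-numbered mice correlated from -0.055 to 0.15 over probe sets, and only replicate 2 (0.15) exceeded 0.1, so the numbers were not taken as pairs. With the replicate block 7 probe sets had an unadjusted p under 0.05, all higher (4.05% of all probe sets were higher and 7.37% lower), and 0 passed, as over all probe sets.

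Of 386 log2 differences of single probe sets under other settings, 359 kept their direction. The 27 that turned, at 11 probe sets, were far from passing. With an offset of 50, Camk4 1452572_at gave -0.0013. After quantile normalization Camk2d 1459457_at gave 0.0014 and 1456844_at 0.061. After centring, these gave 0.019 and 0.045, and Camk2g 1423941_at and 1423942_a_at gave 0.0035 and 0.0046. Array weights gave 0.010 and 0.0056 for Camk2d 1459457_at and 1456844_at. The replicate block gave -0.00071 for Camk2d 1439168_at and 0.031 for 1456844_at. The cerebellum covariate gave -0.023 and the 3'/5' ratio -0.11 for Camk4 1452572_at. The thalamus and brainstem covariate gave -0.15 for Camk2a 1443876_at, 0.065, 0.27 and 0.11 for Camk2d 1460630_at, 1459457_at and 1456844_at, and -0.0046 for Camkv 1423802_at. The oligodendrocyte covariate gave -0.12 for Camk2a 1443876_at, -0.086, 0.0076, 0.065 and 0.0013 for Camk2d 1439168_at, 1460630_at, 1459457_at and 1456844_at, 0.029 for Camk2g 1423941_at and 0.048 for Camk1g 1424633_at. Without the 2 low arrays Camk2a 1441734_at gave -0.0013 and Camk2d 1459457_at 0.019. With 1 mouse left out, 18 of 390 values turned, at Camk2d 1439168_at (-0.12 to 0.20), 1459457_at (-0.096 to 0.077) and 1456844_at (-0.042 to 0.046), Camk4 1452572_at (-0.10 to 0.17) and Camk1g 1424633_at (-0.12 to 0.0040).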
